A study of Stylosanthes guianensis with 6 samples.

Results

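WRKY transcription factors were examined in leaves of stylo (Stylosanthes guianensis), a tropical forage legume, under Mn toxicity. The 9 unigenes described here are those that the study's table of Mn-responsive transcription factors places in the WRKY family, out of 102864 unigenes in the deposited tables. A unigene is the assembled counterpart of a gene, because the reads were assembled without a genome. That table holds only unigenes that the study called different between the treatments with DESeq2, where q had to be below 0.05 and the log2 fold change had to reach 1 in either direction. The contrast between the treatments therefore chose the members, so their differences, and whether they passed the limits of the fit used here, are given below as a description and not as a test of the family.

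Seedlings of the genotype 'TF303' grew for 30 d in nutrient solution with the background Mn supply and then for 10 d at 5 μM MnSO4 (control) or 400 μM MnSO4 (Mn toxicity). Both groups were moved to fresh solution at the start of the treatment. A box of 4 seedlings was 1 biological replicate, and leaves gave 3 RNA-seq libraries per treatment. Where the values of a group follow each other below, they stand in the order of replicates 1, 2 and 3. Since bulk leaf RNA was measured, fewer cells of a type and less RNA per cell cannot be told apart.

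WRKY proteins are plant transcription factors that carry a conserved DNA-binding domain with a zinc finger, and they bind W-box elements in promoters. They are known from defence against pathogens, salicylic acid and jasmonic acid signalling, leaf senescence and responses to abiotic stress. Many of them are themselves induced quickly by stress, act downstream of MAP kinases, and bind VQ proteins or calmodulin as partners.

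The annotation was checked against the family label first. All 9 members were annotated with the Pfam WRKY DNA-binding domain, so the label rests on the same domain in each. The study's table of defence-related genes also lists 7 of them, all but the unigenes described as WRKY9 and WRKY12. A WRKY number was given by the description or by the nucleotide match for 6 of them, in each case from another legume (Glycine max, Glycine soja or Vigna radiata). These numbers name the best match and are not assignments to an Arabidopsis ortholog. The shortest lengths that fit the values ran from 817 to 1867 bp, with a median of 1306 bp, against 1319 bp for all unigenes tested.

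The values are RPKM, that is, reads relative to the length of the unigene and to the mapped reads of the library, so levels can be compared between unigenes. Library totals recovered from the values were 31.1 to 37.8 M reads, and 1 read on a unigene of 1 kb was worth 0.0265 to 0.0321 RPKM. A set of 40 abundant unigenes was picked after the values were seen, by a share of 0.1% or more in some library and a highest share over 8 times the lowest. It held 0.966 to 1.78% of the reads in the control libraries, while its share in the treated libraries was 23.6, 1.62 and 38.6%. Because RPKM is relative to all mapped reads, the members are also given after median-of-ratios scaling, which sets the median unigene equal between libraries. This scaling divided the control libraries by 1.11, 1.07 and 1.12 and the treated libraries by 0.977, 1.29 and 0.628. Over the 30913 unigenes tested, which are those with a mean of at least 0.5 RPKM, the median log2 fold change was -0.20 as deposited and -0.00 after scaling. All log2 fold changes below are on the log2(RPKM + 0.5) scale, Mn toxicity against control, with the standard error (SE) from limma. The added 0.5 draws those of weak unigenes toward 0.

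All 9 members had higher mean RPKM under Mn toxicity than in the control, by 2.19-fold to 8.80-fold. Their log2 fold changes ran from 0.75 to 1.38, with a median of 0.87, and after scaling from 0.88 to 1.61, with a median of 1.05. As deposited, 2 members passed the limits of the fit (adjusted p below 0.05 and log2 fold change of at least 1), where 2.09% of all unigenes tested passed them as higher and 5.78% in either direction. After scaling, 4 members passed, against 4.37% of all as higher and 8.14% in either direction. In 6 of the 9, every Mn toxicity library lay above every control library, a pattern found in 9.41% of all unigenes tested. After scaling, 7 members had this pattern, against 22.7% of all. Since the same contrast chose the members, nothing is read from these shares.

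**Figure D1:**
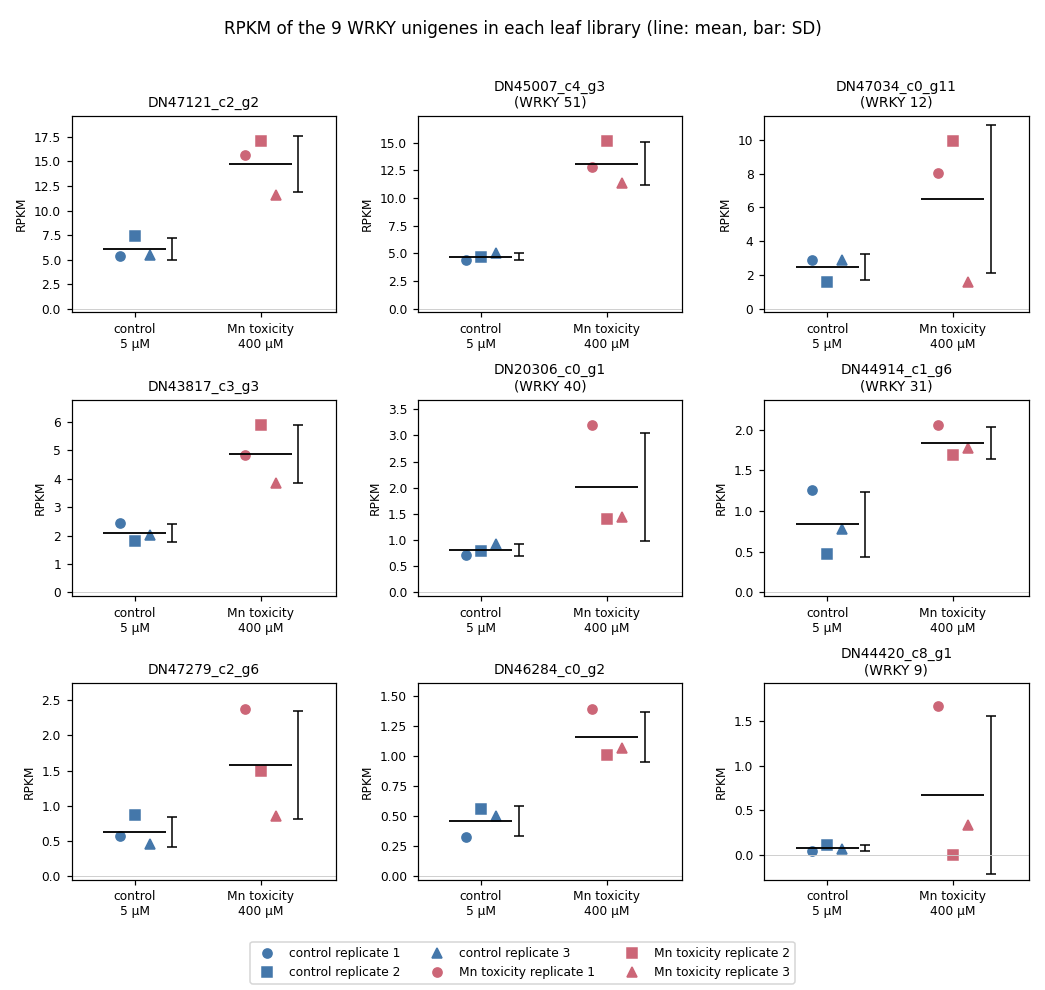
RPKM of each WRKY unigene (1 panel each, ordered by mean level, each with its own vertical axis) in the 3 control and the 3 Mn toxicity libraries; symbols mark the replicates, lines the group means and bars the SD. The groups are apart in 6 panels and overlap for DN47034_c0_g11, DN47279_c2_g6 and DN44420_c8_g1.

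The most abundant member was TRINITY_DN47121_c2_g2, whose best match is a WRKY family protein of Medicago truncatula. Its RPKM was 5.38, 7.37 and 5.43 in the control libraries, against 15.6, 17.1 and 11.6 in the treated libraries. The groups did not overlap, and the lowest treated library lay well above the highest control. The mean was 6.06 ± 1.13 (SD, n = 3) RPKM in the control and 14.8 ± 2.86 (SD, n = 3) under Mn toxicity. Its log2 fold change was 1.21 (SE 0.25) as deposited and 1.45 (SE 0.18) after scaling. This unigene stood at the 74.1 percentile of control means among the 51569 unigenes above 0 and was the only member of the family above 6 RPKM in the control mean.

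TRINITY_DN45007_c4_g3 matches a putative WRKY51 of Glycine soja. In Arabidopsis, WRKY51 takes part in the repression of jasmonic acid responses by salicylic acid. The stylo unigene measured 4.40, 4.71 and 5.00 RPKM in the control libraries, against 12.8, 15.1 and 11.3 in the treated libraries. Both groups were tight and far apart. The means were 4.70 ± 0.302 and 13.1 ± 1.91 RPKM (SD, n = 3 each). The log2 fold change was 1.38 (SE 0.23), the highest of the 9, and 1.61 (SE 0.17) after scaling. These 2 most abundant members together held 54.2 to 67.8% of the summed RPKM of the family in a library, and they were the 2 that passed the limits as deposited. None of the 9 members passed when control replicate 1, 2 or 3 or Mn toxicity replicate 1 was left out, fits in which 289 to 423 unigenes passed over the whole table, whereas 5 passed without Mn toxicity replicate 3, a fit in which 2848 unigenes passed. With all libraries set to an equal RPKM sum, none passed either, and the log2 fold change of this unigene was then 1.01.

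A second pair of members had intermediate levels in the control. TRINITY_DN43817_c3_g3, a WRKY family protein whose nucleotide match is the GmWRKY3 clone of soybean, measured 2.44, 1.82 and 2.01 RPKM in the control libraries. Its values in the treated libraries were 4.83, 5.89 and 3.86 RPKM. All treated libraries were above all controls. Its log2 fold change of 1.04 (SE 0.28) became 1.25 (SE 0.16) after scaling, when it also passed the limits.

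TRINITY_DN47034_c0_g11 is described as a probable WRKY12 of soybean, while its nucleotide match is soybean WRKY38. In Arabidopsis, WRKY12 is known from the control of secondary wall formation in pith and of flowering. The stylo unigene measured 2.90, 1.59 and 2.89 RPKM in the control libraries, against 8.02, 9.94 and 1.56 in the treated libraries. Mn toxicity replicate 3 was just below the lowest control library, and the other treated libraries were far above them, so the groups overlapped. The overlap remained after scaling, where that library measured 2.48 and the highest control 2.61. With 55 reads in Mn toxicity replicate 3 against 283 and 336 in the other treated libraries, counting error was small beside the gap. The log2 fold change was 0.98 (SE 0.55, the largest SE of the family) and moved with the treated library left out, to 0.68 without replicate 1, 0.54 without replicate 2 and 1.71 without replicate 3.

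The remaining 5 members had control means below 1 RPKM. TRINITY_DN44914_c1_g6, a probable WRKY31, measured 1.26, 0.476 and 0.778 RPKM in the control libraries. In the treated libraries it measured 2.06, 1.69 and 1.77 RPKM. The control libraries spread 2.65-fold and the treated ones 1.22-fold, and the groups did not overlap. The log2 fold change was 0.84 (SE 0.32), and 1.03 (SE 0.30) after scaling, when it passed the limits.

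TRINITY_DN20306_c0_g1 is described as a probable WRKY40 of soybean. Arabidopsis WRKY40 is a pathogen-induced repressor that also acts in abscisic acid signalling. The stylo unigene measured 0.721, 0.785 and 0.935 RPKM in the control libraries, against 3.20, 1.40 and 1.44 in the treated libraries. The groups were apart, and Mn toxicity replicate 1 stood above the other treated libraries, with 158 reads against 66 and 71. Its log2 fold change of 0.87 (SE 0.34) was 0.55 without that library.

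TRINITY_DN47279_c2_g6 matches a WRKY DNA-binding domain protein of Medicago truncatula. It measured 0.566, 0.865 and 0.457 RPKM in the control libraries, against 2.38, 1.5 and 0.849 in the treated libraries. As deposited, Mn toxicity replicate 3 lay just under control replicate 2. After scaling these libraries were at 1.35 and 0.809, and the groups no longer overlapped. Its log2 fold change was 0.83 (SE 0.35) as deposited and 0.97 (SE 0.28) after scaling.

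TRINITY_DN46284_c0_g2 has an uncharacterized protein as its best match, and its Pfam and eggNOG annotations name WRKY. It measured 0.324, 0.561 and 0.501 RPKM in the control libraries, against 1.39, 1.01 and 1.07 in the treated libraries. The groups did not overlap, with 18 to 32 reads in a control library and 56 to 81 in a treated one. Its log2 fold change was 0.78 (SE 0.30). This value was 1.17 with a pseudocount of 0.1 and 0.56 with a pseudocount of 1, so its size depends on the value added before the logarithm.

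TRINITY_DN44420_c8_g1 is described as a probable WRKY9 of Vigna radiata and was the weakest of the family. It is also the member for which the study lists qRT-PCR primers, which are shown because they are the sequences of a member held by the sources used here.
WRKY9 forward primer: gtgtgcctggctctgatctt
WRKY9 reverse primer: ggcgattgcgtcagatccta
Both primers have 20 bases and are written 5′ to 3′. Where they lie in the unigene was not analysed here. The study selected 15 responsive genes for qRT-PCR and reports a significant correlation with its RNA-seq data. Its text gives no separate qRT-PCR value for this unigene.

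The WRKY9 unigene measured 0.0445, 0.116 and 0.0688 RPKM in the control libraries, which is 3, 8 and 4 reads. In the treated libraries it measured 1.67, 0 and 0.341 RPKM, or 118, 0 and 24 reads. The treated libraries thus spanned the controls on both sides. The value of 0 in Mn toxicity replicate 2 allows up to 3 reads, or 0.0444 RPKM, which is no more than the lowest control. The means were 0.0763 ± 0.0362 and 0.672 ± 0.885 RPKM (SD, n = 3 each), the highest fold of means in the family (8.80) with an SD above the mean under treatment. Mn toxicity replicate 1 held 83.1% of the treated reads. The ratio of summed reads, corrected for library totals, was 8.84 (95% interval 5.18 to 16.2, counting error only). On the log2 scale the change was 0.75, and it was 0.17 without Mn toxicity replicate 1 and 1.23 without replicate 2. With a mean of 0.374 RPKM this unigene was the only member under the minimum for the fit, so 8 of the 9 members were tested.

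The edge of the rule is shown by 1 further unigene. TRINITY_DN18046_c0_g1, a probable WRKY72 of soybean, is in the study's table of defence-related genes but has no Pfam domain in the study's annotation and is absent from its transcription factors. In Arabidopsis and tomato, WRKY72 is known from basal defence. It measured 0.115, 0.182 and 0.0665 RPKM in the control libraries, against 0.356, 0.386 and 0.233 in the treated libraries. The groups did not overlap, although the values rest on 4 to 27 reads. The ratio of summed reads was 2.62 (95% interval 1.64 to 4.31, counting error only), and the log2 fold change was 0.41. The rule itself set no limit on level. The weakest member, the WRKY9 unigene, had a mean over the 6 libraries of 0.374 RPKM, against 0.223 RPKM for the WRKY72 unigene. By the fit used here, the members nearest to a log2 fold change of 1 were DN43817_c3_g3 above it (1.04) and the WRKY12 unigene below it (0.98).

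The order of levels was similar in both treatments. In the control, DN47121_c2_g2 was highest, followed by the WRKY51 unigene, and the libraries of these neighbours did not overlap. The WRKY12 unigene and DN43817_c3_g3 came next and overlapped each other. The WRKY31, WRKY40, DN47279_c2_g6 and DN46284_c0_g2 unigenes formed a run in which each neighbour overlapped the next, and the WRKY9 unigene lay below all of them. Under Mn toxicity DN47121_c2_g2 and the WRKY51 unigene overlapped, the WRKY12 unigene again overlapped DN43817_c3_g3, and the 5 weakest members overlapped from neighbour to neighbour.

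Summed over the 9 members, the family measured 18.0, 18.3 and 18.1 RPKM in the control libraries. The treated libraries reached 52.0, 53.6 and 33.8 RPKM. Replicate 3 was the lowest treated library but lay above every control. The means were 18.1 ± 0.136 and 46.5 ± 11 RPKM (SD, n = 3 each), a ratio of 2.56. After scaling, the treated libraries were at 53.3, 41.6 and 53.8 and the ratio was 3.01, with Mn toxicity replicate 2 now lowest.

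**Figure D2:**
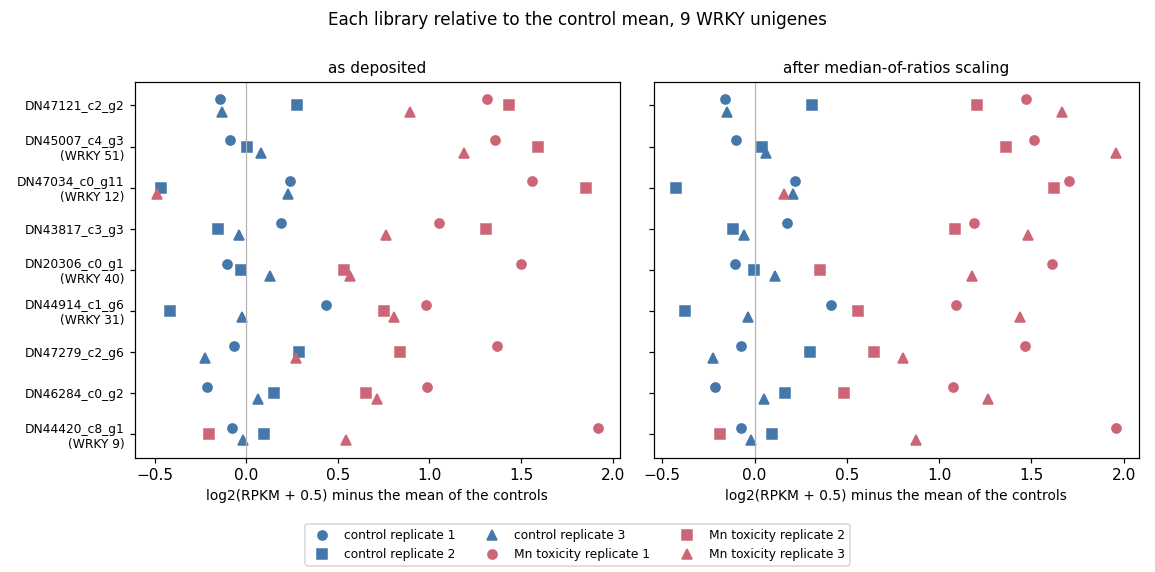
log2(RPKM + 0.5) of each library minus the mean of the controls for each WRKY unigene, as deposited (left) and after median-of-ratios scaling (right); symbols mark the replicates. As deposited Mn toxicity replicate 3 is the lowest treated library for 5 of the 9, against 82.4% of all unigenes tested. After scaling Mn toxicity replicate 2 is the lowest for 8, against 33.4% of all.

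The rule did not fix the order among the treated libraries. As deposited, Mn toxicity replicate 1 was the highest treated library for 5 members and replicate 2 for 4, while over all unigenes tested replicate 2 was highest for 80.5% and replicate 1 for 14.9%. The 5 with replicate 1 highest were the 5 members with control means below 1 RPKM, and the 4 with replicate 2 highest were the more abundant ones. After scaling, Mn toxicity replicate 2 was the lowest treated library for 8 of the 9 members, against 33.4% of all unigenes tested, and the exception was the WRKY12 unigene. Replicate 2 is also the treated library in which the 40 abundant unigenes held a share close to that of the controls. These are orders within 3 libraries that the members share, and no test was made of them. The part of the abundant unigenes in this order was not tested.

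**Figure D3:**
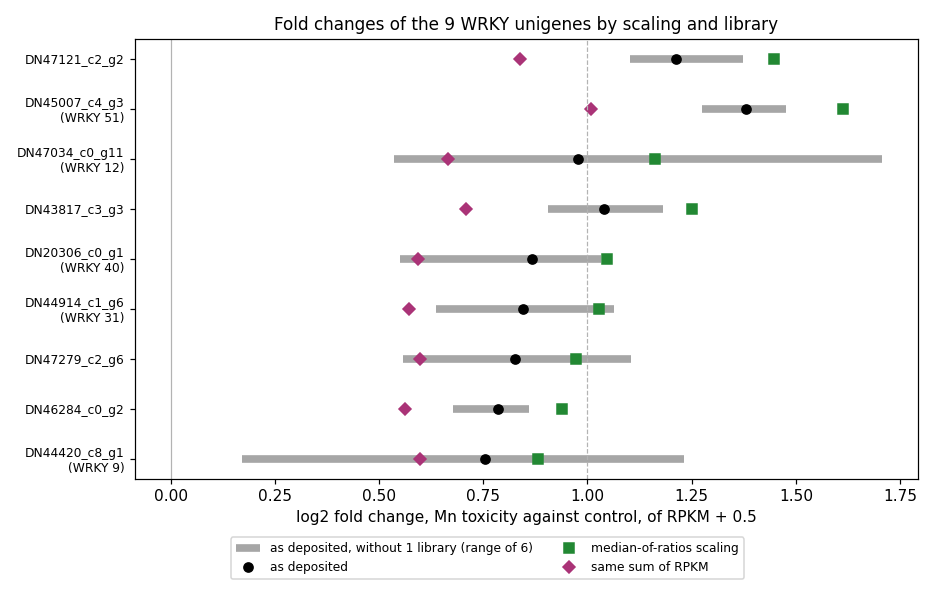
log2 fold change of each WRKY unigene (log2(RPKM + 0.5), Mn toxicity against control) as deposited, with median-of-ratios scaling and with equal RPKM sums; grey bars span the 6 fits as deposited that each leave out 1 library, and the dashed line marks 1. Every point and bar lies above 0, and the bars are widest for the WRKY12 and WRKY9 unigenes.

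The SD of log2(RPKM + 0.5) was wider in the treated group for 7 of the 9 members, against 90.5% of all unigenes tested, and for 8 of the 9 after scaling, against 81.2%. Across the 6 scaled libraries, the 36 pairs of members correlated with Pearson r from 0.42 to 0.98, where all points share the treatment contrast. The highest value joined the WRKY51 unigene and DN43817_c3_g3, and the lowest joined the WRKY12 unigene and DN46284_c0_g2.

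Other unigenes of the same assembly components were compared, because reads of similar sequences may be split among them. Such neighbours occurred for 7 of the 9 members and were absent for the WRKY9 and WRKY40 unigenes. For the WRKY51 unigene, the 2 neighbours had log2 fold changes of 0.33 and 0.43, against 1.38 for the member. The single neighbour of DN47121_c2_g2 was more abundant, at a mean of 14.8 RPKM over the 6 libraries, with a log2 fold change of 0.47 against 1.21. For DN46284_c0_g2 the 2 neighbours were at -0.75 and -0.22, against 0.78 for the member. The 5 neighbours of the WRKY31 unigene ran from -0.69 to 0.62 and include TRINITY_DN44914_c1_g2, which the study also lists as responsive. Tested neighbours were at 0.31 and 0.86 for DN43817_c3_g3 and at -0.002 and 0.75 for DN47279_c2_g6. The WRKY12 unigene lies in the largest component, in which 10 of 15 neighbours were tested, from -1.24 to 0.95. Of these, 1 passed the limits, as lower under Mn toxicity, while the member itself was at 0.98. That component also holds TRINITY_DN47034_c0_g5, described as a TMV resistance protein N-like, so not all neighbours are of the WRKY family. Members with such neighbours are uncertain to the extent that RSEM divided shared reads, which was not tested.

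Unigenes of classes linked to WRKY proteins or to salicylic and jasmonic acid were taken from the same study's tables of responsive genes. These were also chosen on this contrast, and the counts are a description. Over all unigenes tested, 2.09% passed as higher and 5.78% in either direction as deposited. After scaling, these shares were 4.37 and 8.14%. The table of all responsive genes was used only in part, with 1748 entries, so the VQ, MAP kinase, calmodulin, PR-1 and methyltransferase lists may be incomplete. VQ proteins bind the WRKY domain through a short motif and modulate its activity. Of 3 VQ unigenes, 1 passed the limits as higher and none as lower. It was TRINITY_DN46510_c2_g2, which measured 3.25, 3.58 and 3.86 RPKM in the control libraries, against 8.72, 8.52 and 8.91 in the treated libraries. Its groups were apart, and the log2 fold change was 1.18 (SE 0.24). The others had log2 fold changes of 0.73 (SE 0.26) and 0.81 (SE 0.33). In all 3, every treated library lay above every control library, a pattern found in 9.41% of all unigenes tested. Since the same contrast chose the lists, nothing is read from these shares.

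MAP kinase cascades phosphorylate several WRKY proteins in defence. Of 7 unigenes whose annotation names the cascade, 6 were tested, 1 passed as higher and 2 as lower, while 3 passed in each direction after scaling. TRINITY_DN16833_c0_g1, a MAP kinase kinase kinase, went from 0.95 ± 0.0649 to 3.08 ± 0.451 RPKM (SD, n = 3 each), a log2 fold change of 1.30. TRINITY_DN47629_c1_g1, matching a MAP kinase, was far more abundant and went from 74.8 ± 4.77 to 32.2 ± 13.4 RPKM, a log2 fold change of -1.29. TRINITY_DN28391_c0_g1, an ANP1-like MAP kinase kinase kinase, went from 6.0 ± 0.553 to 2.27 ± 0.142 RPKM, or -1.23. The list is not pure, since 2 of the 7 are a TMV resistance protein and a RALF signalling peptide by their protein match. After scaling, the TMV resistance protein passed as lower and the RALF peptide as higher, so the scaled counts above include both.

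Calmodulin binds some WRKY proteins in a calcium-dependent manner. Of the 5 calmodulin-related unigenes, 4 were tested, of which none passed the limits by limma as deposited and 2 passed after scaling. The 4 tested are described as calmodulin-binding or carry an IQ calmodulin-binding motif, and none of them is described as calmodulin itself. An unadjusted p under 0.05 was reached by 2 of the tested unigenes, and voom on recovered reads passed 0 with library totals and 4 with median-of-ratios factors. Of the 5, 1 matches a calmodulin of a chytrid fungus, had no read in the control libraries and is also in the set of fungal or algal matches described last. The most abundant, TRINITY_DN43330_c2_g1, resembles CBP60G, a calmodulin-binding regulator of salicylic acid synthesis in Arabidopsis. It measured 4.28 ± 0.196 RPKM in the control and 8.13 ± 1.77 under Mn toxicity (SD, n = 3 each), a log2 fold change of 0.83 (SE 0.25). The groups did not overlap.

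PR-1 proteins are markers of salicylic acid responses, and W-boxes in the PR-1 promoter are known WRKY targets in Arabidopsis. Of 3 unigenes named as pathogenesis-related protein 1, 2 passed as higher. TRINITY_DN1347_c0_g1 went from 12.2 ± 0.743 to 31.0 ± 8.58 RPKM (SD, n = 3 each), a log2 fold change of 1.28. TRINITY_DN31763_c0_g1 went from 8.27 ± 0.857 to 20.7 ± 1.39 RPKM, or 1.27, but carries the Bet v I domain of class-10 proteins and is not of the PR-1 family by domain. The third, TRINITY_DN46049_c1_g3, a basic form, had 1.39 ± 0.286 and 0.502 ± 0.490 RPKM and a log2 fold change of -1.02. It did not pass by limma as deposited or after scaling. Its groups did not overlap, with the highest treated library at 1.05 RPKM and the lowest control at 1.19 RPKM. Voom passed 2 of the 3 unigenes with library totals and all 3 with median-of-ratios factors, counted in either direction. The 4 listed salicylate or jasmonate methyltransferases, which convert these hormones to their methyl esters, had log2 fold changes of 0.81 to 1.08. None of them passed by limma as deposited and all 4 passed after scaling. An unadjusted p under 0.05 was reached by all 4, and voom passed 0 with library totals and 4 with median-of-ratios factors.

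The 9 WRKY members were set beside the other 114 transcription factors of the study's table. Of these, 99 were tested, 19 passed as higher and 16 as lower as deposited, while 43 passed as higher and 18 as lower after scaling. Their median log2 fold change was 0.81, against 0.87 for the WRKY members. All 9 WRKY members had log2 fold changes above 0, as had 7 of 7 C2H2 zinc finger and 5 of 5 HSF members. By contrast, the number was 2 of 6 for Dof zinc finger and 1 of 5 for TCP members. In the other families of 9 or more, the number was 23 of 24 for AP2, 13 of 15 for helix-loop-helix, 15 of 22 for MYB and 9 of 11 for NAM. The median control level was 0.838 RPKM for the WRKY members and 1.74 RPKM for the other transcription factors. No test was made between families, since every family was chosen on the same contrast.

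The transcription factors most like the 2 most abundant members were found by Pearson r of scaled log2(RPKM + 0.5) over the 6 libraries, among the other 122 transcription factors. For DN47121_c2_g2 they were TRINITY_DN54332_c0_g1 (C2H2 zinc finger, ZAT12-like, r = 0.988), TRINITY_DN43614_c5_g2 (AP2, r = 0.985) and TRINITY_DN43046_c1_g1 (helix-loop-helix, r = 0.985). For the WRKY51 unigene they were TRINITY_DN42359_c0_g1 (listed as NAM, r = 0.999), TRINITY_DN45716_c1_g1 (MYB, r = 0.997) and TRINITY_DN12526_c0_g1 (C2H2 zinc finger, ZAT5-like, r = 0.995). TRINITY_DN42359_c0_g1 carries the NAM label by its domain, while its nucleotide and protein matches are aspartic proteases. An r above 0.95 was common, with 23 and 37 of the 122 above it, and all of these unigenes were chosen for the same contrast in the same 6 libraries.

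Beside the tissue label, 4 photosystem unigenes of the chloroplast were looked at, taken from the study's responsive genes. They were present in every library. Since unigenes listed as responsive had to be expressed, their presence does not test the label. The summed level of these 4 unigenes was 53.8 to 101 RPKM in the control and 66.5 to 1557 RPKM under Mn toxicity, with Mn toxicity replicate 2 the lowest treated library. In the same deposited values, that replicate was the lowest treated library for 4 of the 9 WRKY members and the highest for 4. Over all unigenes tested, it was the lowest for 3.67% and the highest for 80.5%. A set of 5 unigenes whose matches name a fungus or an alga summed to 0.487 to 9.62 RPKM in the control and 0.537 to 2.47 RPKM under Mn toxicity. Their part in the WRKY values was not tested.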

How the data were processed

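Leaves of stylo were sequenced as 3 libraries per treatment, grouped by the sample titles. The titles number the replicates, and the Mn concentrations are given as mM in the labels but as μM in the protocol, which was used. The authors assembled the reads with Trinity, mapped them with Bowtie2 2.2.3 (submitters' processing notes) and deposited RPKM values from RSEM (version: not given in the sources used here). Differences were called by the authors with DESeq2, and no scaling of the RPKM between libraries is stated. The members and lists were chosen with earlier results of these data known. Unigenes were named by membership in the WRKY family or in the lists, with at most 3 examples a list. The calmodulin example was the highest of its list by mean level. The VQ and MAP kinase examples were the unigenes that passed the limits as deposited. By mean level, TRINITY_DN46151_c1_g6 of the VQ list (8.85 RPKM) and TRINITY_DN43366_c2_g2 of the MAP kinase list (8.81 RPKM) stood above some of them.

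The fit used limma 3.58.1 (R 4.3.3) on log2(RPKM + 0.5), two-sided, with an intensity trend. P-values were adjusted by Benjamini-Hochberg over 30913 unigenes whose mean reached 0.5 RPKM. Limits for a call were 0.05 for the adjusted p and 1 for the size of the log2 fold change. Whole reads and lengths were recovered from the RPKM steps (Python 3.11.15, numpy 2.4.6, pandas 2.3.3) and served for read numbers, intervals and voom. They made up 99.60 to 99.76% of library totals of 31.1 to 37.8 M reads. Both procedures were tested on simulated data. Same-numbered libraries of the groups had correlations of deviations of 0.08, -0.15 and -0.08, so the numbers were not treated as pairs. Alternatives covered pseudocounts, minimum levels, scalings, variance models, a replicate block, voom and leaving out each library. The study's tables gave names and lists, not values, and the table of all responsive genes was used only in part (1748 entries).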

Additional observations from a re-analysis of the deposited data

How the results depend on the processing

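All 9 WRKY members kept a log2 fold change above 0 in each of the 23 alternatives. The number of members passing the limits was 2 as reported, 4 with median-of-ratios scaling, 4 with quantile normalization, 6 with voom on recovered reads and median-of-ratios factors, and 0 with libraries rescaled to the same sum of RPKM. With 1 library left out it ranged from 0 to 7, as deposited or scaled. As deposited, it was 0 without any 1 control library or treated replicate 1, and 5 without treated replicate 3. After scaling, it was 7 when treated replicate 2 was left out. The median log2 fold change of the members, 0.87 as reported, was 1.17 with a pseudocount of 0.1 and 0.68 with a pseudocount of 1. This median was 1.23 with voom on library totals and 1.48 with voom and median-of-ratios factors. It ranged from 0.68 to 1.33 with 1 library left out. The log2 fold change of the WRKY72 unigene, 0.41 as reported, was 1.44 and 1.69 with these voom fits. For that unigene it was 0.96 with a pseudocount of 0.1 and 0.24 with a pseudocount of 1. Over all unigenes the number passing was 1787 as reported, 3086 with voom and median-of-ratios factors, 1179 with the same sum of RPKM, and 289 to 4977 with 1 library left out. It was 2848 without treated replicate 3 as deposited. After scaling, it was 3447 without treated replicate 2 and 2894 without treated replicate 3. With the replicate block it was 2693, while the members passing stayed at 2. The pairing of replicate numbers is a numbering only. The cause of these differences was not tested. Depth limits the WRKY9 and WRKY72 unigenes, with 15 and 25 control reads in all.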
